A study of Mus musculus with 15 samples.

Results

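The canonical histone genes of mouse testis were followed through spermatogenesis and through JQ1 treatment and withdrawal. The set held every gene of the count tables whose symbol starts with Hist1h, Hist2h, Hist3h or Hist4h, except the testis-specific Hist1h1t, Hist1h2ba and Hist1h2aa. It comprised 64 of the 32285 genes in the tables, of which 5 encode the linker histone H1, 17 encode H2A, 17 H2B, 12 H3 and 13 H4. On mm10, 51 of them lie on chromosome 13 between positions 21715763 and 23764406, 10 on chromosome 3, 2 on chromosome 11 and 1 on chromosome 6. Single-cell RNA-seq had been performed on 1 testis from each of 15 DBA/2J male mice, 3 per group, so each library was a separate mouse. JQ1, a small molecule that competes for the bromodomains of the BET proteins, among them the testis protein BRDT, was injected intraperitoneally at 50 mg/kg daily for 3 wk. The treated mice were examined at once at 10 wk of age (T) or after 6 wk of withdrawal at 16 wk of age (R). Vehicle-injected mice were examined at the same times and ages (VC-T and VC-R), and untreated mice at 15 wk (UC). T and UC therefore differed in age and injection as well as in JQ1, which cannot be told apart in that comparison, and both T and R were set against the same UC libraries.

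Canonical histone genes are switched on together in S phase, when new DNA must be packaged, and are silent or low outside it. Their mRNAs carry no introns and, as a rule, no poly(A) tail. They end instead just after a conserved stem-loop that is bound by SLBP, and NPAT drives their transcription in the histone locus body. In the testis, spermatogonia divide mitotically, preleptotene cells pass through the last S phase, and spermatocytes and spermatids no longer replicate DNA. Most histones of elongating spermatids are removed and replaced by transition proteins and then by protamines. The libraries were primed on poly(A), so the values count unique molecular identifiers (UMIs) of histone RNAs with a tail or with an internal stretch of A, and they say nothing of the stem-loop forms that were not primed.

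The sequences of 4 members are shown because these genes led the spermatogonia and the spermatids, in which the set was high. They are the RefSeq promoters, 250 bases before to 50 bases after the gene start on GRCm38.p6. Capitals mark a CCAAT box, a TATA box with the letters TATAAA or a cAMP response element with the letters TGACGTCA. Each was searched on both strands, so that ATTGG stands for the first box read on the other strand, and TTTATA for the second. Hist1h2ap, an H2A gene, lies at chr13:21833426-21833725 on the minus strand, and Hist1h1a, an H1 gene, at chr13:23763418-23763717 on the plus strand. Among the cell classes both had their highest mean in spermatogonia-like cells, and Hist1h1a was higher still in the leptotene and zygotene stage of the spermatocytes. Hist1h2bp, an H2B gene, lies at chr13:21787238-21787537 on the plus strand, and Hist1h4a, an H4 gene, at chr13:23761200-23761499 on the minus strand. Both were highest in spermatids.
Hist1h2ap: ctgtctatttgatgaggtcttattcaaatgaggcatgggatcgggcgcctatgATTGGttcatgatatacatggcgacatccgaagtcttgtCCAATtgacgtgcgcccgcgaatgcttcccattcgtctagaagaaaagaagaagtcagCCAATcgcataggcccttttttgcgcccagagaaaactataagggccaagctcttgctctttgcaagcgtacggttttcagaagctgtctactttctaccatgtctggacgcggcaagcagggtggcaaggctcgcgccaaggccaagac
Hist1h1a: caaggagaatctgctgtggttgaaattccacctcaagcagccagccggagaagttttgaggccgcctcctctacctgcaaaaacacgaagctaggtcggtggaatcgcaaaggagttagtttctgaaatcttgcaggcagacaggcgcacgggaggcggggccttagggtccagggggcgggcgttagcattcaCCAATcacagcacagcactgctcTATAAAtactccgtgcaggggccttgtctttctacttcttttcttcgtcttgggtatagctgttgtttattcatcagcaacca
Hist1h2bp: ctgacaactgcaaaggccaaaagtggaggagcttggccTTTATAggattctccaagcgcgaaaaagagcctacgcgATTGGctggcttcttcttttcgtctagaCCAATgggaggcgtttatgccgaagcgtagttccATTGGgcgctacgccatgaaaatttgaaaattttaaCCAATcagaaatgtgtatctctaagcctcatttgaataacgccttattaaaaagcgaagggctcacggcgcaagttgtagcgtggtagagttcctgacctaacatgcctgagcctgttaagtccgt
Hist1h4a: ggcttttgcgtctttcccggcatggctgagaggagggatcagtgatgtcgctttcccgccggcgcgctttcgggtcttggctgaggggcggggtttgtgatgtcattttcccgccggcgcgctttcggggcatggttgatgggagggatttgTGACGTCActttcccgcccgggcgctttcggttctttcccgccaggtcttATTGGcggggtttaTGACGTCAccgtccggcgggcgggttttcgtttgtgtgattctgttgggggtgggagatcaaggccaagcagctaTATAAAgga

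RefSeq gave a promoter for 58 members. The CCAAT box was found in 49 of them (84.5%) and in 37.4% of all 32851 promoters of the same length. The TATA box was found in 32 (55.2% against 13.6%) and the octamer ATTTGCAT in 11 (19.0% against 1.74%), all 11 of them H2A or H2B promoters. The H1 box AAACACA was found in 5 members, 3 of them among the 4 H1 promoters, and in 7.18% of all promoters. The cAMP response element was found in 4 members (6.90% against 1.79%). The Hist1h4a promoter above held it at 2 positions, Hist1h4h held it as well, and the divergent pair Hist1h2ag and Hist1h2bj shared 1 copy.

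The 3′ ends of the same genes differed in the GENCODE vM21 annotation, which is shown here because the libraries were primed on poly(A). Capitals mark the stem-loop core CTTTTCAG or a poly(A) signal (AATAAA) in the last 40 bases of a transcript.
Hist1h2ap-201, stem-loop: aaaaaggctCTTTTCAGagccatc
Hist1h1a-201, stem-loop: ccaacggctCTTTTCAGagc
Hist1h2bp-201, stem-loop: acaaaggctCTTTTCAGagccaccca
Hist1h2bp-202, poly(A) signal: acattataaaAATAAAggtttcaatc
Hist1h4a-201, poly(A) signal: aaattgagtaAATAAAccttgagtgc
The annotated Hist1h2ap transcript ended 7 bases after the core and that of Hist1h1a 3 bases after it, and neither held a poly(A) signal. Hist1h2bp had a short transcript with the core and a second, spliced transcript, whose last exon at chr13:21789024-21789213 held the signal and no core. The single Hist1h4a transcript held the signal and no core. Over all 64 members, 38 had the core in a transcript, 16 had a signal (AATAAA or ATTAAA), 11 had both and 21 had neither, while 48.7% of all 58797 protein-coding transcripts had a signal. Of the 6 members highest in spermatids 2 had a signal, and of the 35 members highest in spermatogonia 8 had one. The ends of 10 members lay whole in the transcript of another member, among them Hist1h2ap with Hist1h2ao and Hist2h2aa1 with Hist2h2aa2, so that the split of UMIs within such pairs is uncertain.

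The libraries held 9673587 to 98724982 UMIs and 72362 cells in all after filters, at a median of 2455 to 4202.5 UMIs per cell. Pairs of libraries shared at most 0.554% of the barcodes of the smaller one. Levels are given as CPM, the UMIs of a gene scaled to 1000000 UMIs of the same library and cell class, in libraries with at least 10 cells of the class. Classes were named from fixed markers after clustering on genes that included no canonical histone gene, and none of those markers was at 0 in its class. Hist1h2ap and Hist1h1a were nevertheless among the leading genes of the spermatogonial cluster. Spermatozoa-like cells stayed under 10 in each T library and in the library labelled VC-T 1. That library also resembled T in other respects: its summed Prm1 and Prm2 level in spermatid-like cells was 420 CPM, against 249.9 to 959.8 CPM in T and 30590 and 26390 CPM in VC-T 2 and VC-T 3. The study leaves it out of its tests, and the tests against VC-T below used the other 2 libraries.

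The summed level of the 64 genes was high at 2 stages and low between them. In spermatogonia-like cells it averaged 1965 CPM over 15 libraries (1165 to 2719 CPM). In spermatocyte-like cells it averaged 166 CPM (119 to 299 CPM), in spermatid-like cells 562 CPM (461 to 691 CPM) and in spermatozoa-like cells 82.0 CPM (60.2 to 110.6 CPM, 11 libraries). No library of 1 germ cell class overlapped the range of another class. The stages come from clusters, so these levels are a description without a test.

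**Figure D1:**
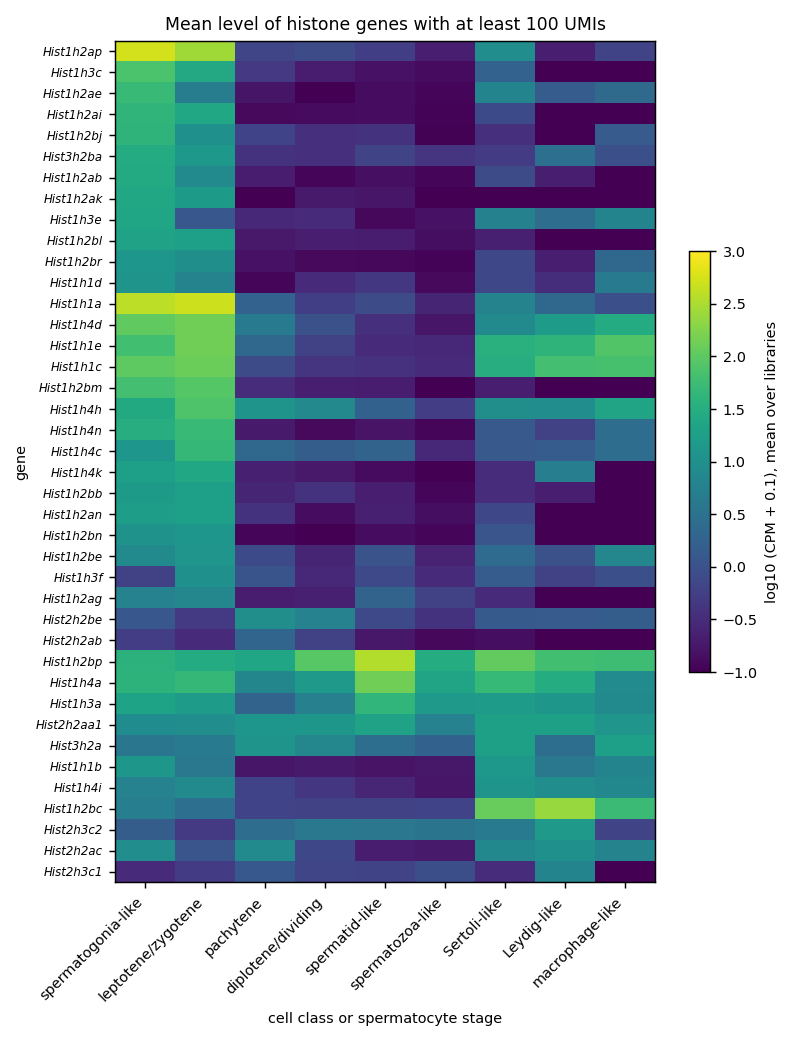
Heat map of the mean level (CPM over libraries, log scale in colour) of each canonical histone gene with at least 100 UMIs, with genes in rows and cell classes and spermatocyte stages in columns. Hist1h2ap and Hist1h1a are highest in spermatogonia-like and leptotene and zygotene cells, while Hist1h2bp, Hist1h4a and Hist1h3a are highest in spermatid-like cells.

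Within spermatocytes the level was high in the leptotene and zygotene cluster and low in the pachytene clusters. It averaged 1805 CPM in the leptotene and zygotene cluster, 109.8 CPM in pachytene and 158 CPM in diplotene and dividing spermatocytes. Hist1h1a averaged 490 CPM in leptotene and zygotene cells and 1.74 CPM in pachytene cells, and Hist1h2ap 264 and 0.575 CPM. Hist1h4h, an H4 gene, differed less, at 77.9 and 11.8 CPM. The summed level of 26 S phase genes (MCM helicase subunits, Pcna and others) ran from 2069 CPM in spermatogonia-like cells over 1626 CPM in leptotene and zygotene cells to 763 CPM in pachytene and 249 CPM in spermatid-like cells, without a second rise.

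**Figure D2:**
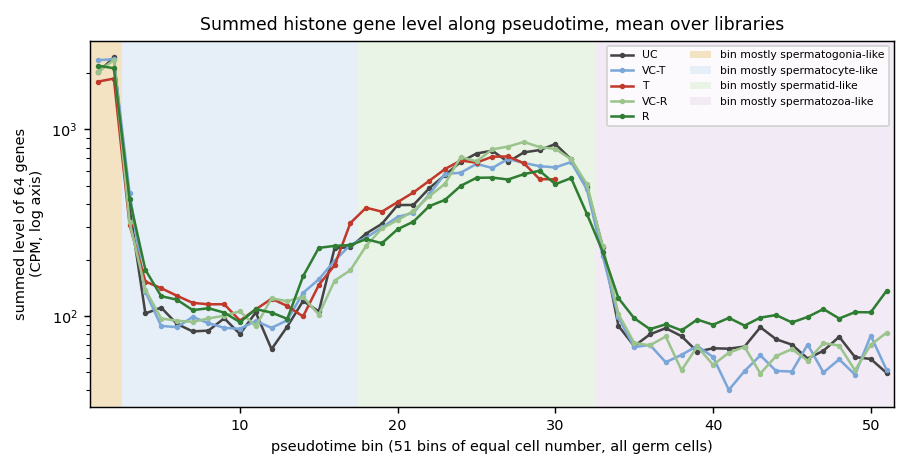
Summed level of the canonical histone genes (CPM, log axis) over 51 bins of pseudotime, 1 line per group as the mean over libraries. The UC line starts at 2021 CPM, reaches its lowest spermatocyte-like value at 66.6 CPM, rises to 835.5 CPM in spermatid-like cells and ends at 49.7 CPM in spermatozoa-like cells, where T has no line.

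The genes behind the 2 stages were not the same. In spermatogonia-like cells the first 5 genes were Hist1h2ap (542 CPM), Hist1h1a (393 CPM), the H4 gene Hist1h4d (107 CPM), the H1 gene Hist1h1c (100.6 CPM) and the H3 gene Hist1h3c (74.3 CPM), and together they gave 61.9% of the histone UMIs. All 5 types were present there, with H2A at 744 CPM, H1 at 580 CPM, H2B and H4 at 254 CPM each and H3 at 133 CPM. Of the 64 genes, 35 were highest in this class, and 8 had fewer than 20 UMIs in all cells together, of which Hist1h2bq and Hist2h3b had none.

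Spermatid-like cells numbered 19165 and spermatogonia-like cells 2100, so UMI counts over all cells weigh the former more. In spermatid-like cells only 6 genes were at their highest. These 6 had 69551 UMIs over all cells kept, against 20224 UMIs for the 35 spermatogonial genes. By level, the first gene of the class was Hist1h2bp at 343 CPM, followed by Hist1h4a at 136 CPM, the H3 gene Hist1h3a at 42.5 CPM, the H2A gene Hist2h2aa1 at 20.1 CPM and the H3 gene Hist2h3c2 at 3.79 CPM, of which Hist2h3c2 was higher in another class. These 5 genes gave 96.9% of the histone UMIs in spermatid-like cells and 91.8% in spermatozoa-like cells. H1 was nearly absent, at 1.59 CPM in spermatid-like cells. In pseudotime, the UC line peaked at 835.5 CPM (818 to 856 CPM over the libraries), with Hist1h2bp at 456 CPM and Hist1h4a at 245 CPM in the same bin. Hist1h2bp was already present in spermatocytes, at 23.6 CPM in pachytene and 91.4 CPM in diplotene and dividing cells, where Hist1h4a stood at 6.83 and 14.1 CPM.

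Neighbouring genes could differ in stage. Hist1h4a (chr13:23760692-23761230, minus strand), Hist1h3a (chr13:23761853-23762386, minus strand) and Hist1h1a (chr13:23763666-23764406, plus strand) follow each other at the end of the chromosome 13 cluster. The first 2 were highest in spermatid-like cells, whereas Hist1h1a averaged 393 CPM in spermatogonia-like and 0.707 CPM in spermatid-like cells. Likewise Hist1h2bp (chr13:21787461-21789213, plus strand) lies next to the H2A gene Hist1h2an (chr13:21786826-21787218, minus strand), which stood at 17.1 CPM in spermatogonia-like and 0.125 CPM in spermatid-like cells.

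In the somatic cells the order was again different. The H2B gene Hist1h2bc averaged 118 CPM in Sertoli-like cells (13 libraries) and 239.6 CPM in Leydig-like cells (10 libraries), against 0.5 to 5.11 CPM in the 4 germ cell classes. Hist1h1e and Hist1h1c, which encode H1 variants, stood at 34.6 and 31.3 CPM in Sertoli-like cells. Hist1h2bp (111 CPM) and Hist1h4a (48.6 CPM) were also counted there, but their range over libraries was wide, from 15.5 to 224.9 CPM for Hist1h2bp. Prm1 and Prm2, transcripts of late spermatids, summed to 7061 to 27600 CPM in the same Sertoli-like cells, and the part of free RNA in the somatic histone levels was not tested.

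JQ1 treatment was compared with both controls, class by class. A gene was called changed when the adjusted p of edgeR was under 0.05 and the fold change over 2, that is, over 1 on the log2 scale. In a class sum, fewer cells of a stage and less RNA per cell cannot be told apart. The filter on low counts also keeps a gene that is high enough in 1 group alone. For a gene that is low in the other group, the sign and the call then carry that selection.

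In spermatogonia-like cells, 16 of the 64 genes passed the filter on low counts for T against UC, and 5 of these were lower in T. DESeq2 called none of the genes in this comparison, and edgeR called 1 without UC 1 or without UC 2. The share of all 7199 tested genes that was called was 4.07%. The median log2 difference was -0.98 over the 16 genes and -0.03 over all tested genes. Hist1h1a was at 559, 649 and 399.5 CPM in the UC libraries and at 200.2, 277 and 348 CPM in the T libraries. All T libraries lay below all UC libraries, with a log2 difference of -1.001 ± 0.19 (SE, adjusted p = 0.00305). Hist1h1c was at 161, 132 and 124 CPM in UC and at 69.4, 72.5 and 62.0 CPM in T. The groups did not overlap, and the log2 difference was -1.002 ± 0.23 (adjusted p = 0.0119). The H2B gene Hist1h2bm fell by 1.27 on the log2 scale (adjusted p = 0.0128), Hist1h3c by 1.14 (adjusted p = 0.0276) and the H2A gene Hist1h2ak by 1.80 (adjusted p = 0.0411), each without overlap of the groups.

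Hist1h2ap, the first gene of the class, gave a value of the opposite sign in the same comparison without passing the test. It was at 341, 372 and 387 CPM in UC and at 348, 508 and 691 CPM in T, so that the groups overlapped. The log2 difference was 0.40 ± 0.19 (95% interval 0.03 to 0.78, adjusted p = 0.271). It was 0.62 without T 1 (adjusted p = 0.0255) and 0.17 without T 3 (adjusted p = 0.731). It was 0.81 with cells matched on pseudotime (adjusted p = 0.171). Without the sub-clusters led by transcripts of later germ cells it was 0.60 (adjusted p = 0.0285). Against VC-T it was lower in T, since the 2 VC-T libraries stood at 917 and 1112 CPM, above every T and UC library. The log2 difference was -1.06 ± 0.20 (adjusted p = 0.00286). Its sign thus differed between the vehicle and the untreated controls.

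Against VC-T, 22 of the 64 genes passed the filter and 5 were called, all lower in T, where the share of all tested genes called was 8.36%. DESeq2 called 1. The median log2 difference was -0.72 over the 22 genes and 0.00 over all tested genes. Besides Hist1h2ap they were the H2A genes Hist1h2ai (log2 difference -1.31, adjusted p = 0.0121), Hist1h2ab (-1.50, adjusted p = 0.0149) and Hist1h2ae (-1.08, adjusted p = 0.0369) and the H4 gene Hist1h4d (-1.12, adjusted p = 0.0214). Hist1h1a was at 509.9 and 335.5 CPM in VC-T and overlapped T, with a log2 difference of -0.71 (adjusted p = 0.0319) that stayed under 2-fold. No gene was called against both controls. With the library labelled VC-T 1 kept, none of the tested genes was called against VC-T in this class. In that library Hist1h1a was at 185.5 CPM and Hist1h2ap at 309 CPM.

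**Figure D3:**
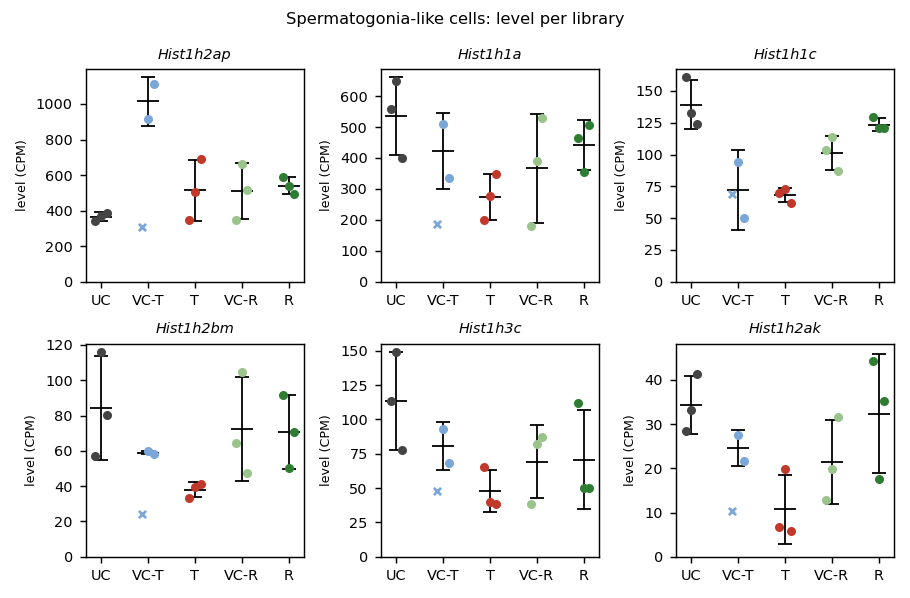
Levels (CPM) of 6 canonical histone genes in spermatogonia-like cells, 1 point per library by group, with the mean and SD of each group and a cross for the library labelled VC-T 1, which is left out of the mean. Hist1h1a, Hist1h1c, Hist1h2bm, Hist1h3c and Hist1h2ak are lower in every T library than in every UC library, whereas Hist1h2ap is highest in VC-T 2 and VC-T 3.

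The spermatogonia-like cells of T were also made up differently. Prm1 and Prm2 summed to 65.9 to 299 CPM there in T and to 5335 to 9413 CPM in UC, and the part of free RNA in the histone levels was not tested. A sub-cluster led by She, Pacsin1 and Kit, the receptor of differentiating spermatogonia, held 55.35 to 73.4% of the class in the T libraries, 97 of 174 cells in VC-T 1 and 2.33 to 5.88% of the class in UC. The sub-cluster with the highest histone level (3076 CPM), led by the meiotic genes Prss50, Meioc and Rec8, held 2.14 to 3.45% in T and 24.2 to 30.4% in UC. T 1 had in addition 22.5% of its cells in a sub-cluster with spermatocyte transcripts and 477 CPM. With cells matched on pseudotime, none of the genes was called in T against UC, and the log2 difference of Hist1h1a was -0.74 ± 0.28 (adjusted p = 0.22). With the sub-clusters led by transcripts of later germ cells left out, 1 gene was called, and Hist1h1a was at -0.78 (adjusted p = 0.00107). Leaving out the sub-clusters was chosen after the data were seen.

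In spermatocyte-like cells, 15 genes passed the filter for T against UC and 3 were called, all lower in T, where 1.01% of all tested genes were called. The 3 were H1 genes. None was called without any 1 of the T libraries, without UC 2 or without UC 3. Hist1h1a was at 12.6, 19.4 and 19.2 CPM in UC and at 3.63, 4.599 and 4.21 CPM in T. The log2 difference was -2.13 ± 0.21 (adjusted p = 0.0191). Hist1h1c fell by 2.51 (adjusted p = 0.0365) and Hist1h1e by 1.65 (adjusted p = 0.0461). Against VC-T, 19 genes passed and 7 were called, all lower in T, where 4.03% of all tested genes were called. These were Hist1h2ap (log2 difference -3.51, adjusted p = 9.75e-04), Hist1h1a (-3.28), Hist1h1c (-3.33), Hist1h1e (-2.22), Hist1h4d (-2.09), Hist1h2bm (-2.76) and Hist1h4n (-4.17). Hist1h4n averaged 1.25 CPM over the libraries of the class and passed the filter through its VC-T levels, so its sign was fixed by the filter. The count of 7 and the shared direction carry this selection in part. With VC-T 1 kept, none of the histone genes was called.

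These sums moved with the share of early cells in the class. The leptotene and zygotene cluster held 0.489 to 0.953% of the spermatocyte-like cells in T and 0.673% in VC-T 1, and 5.21 to 16.6% in UC. It held 11.7 and 18.2% in the other VC-T libraries. The summed H1 level of the class was 7.12 to 8.23 CPM in T and 20.9 to 33.8 CPM in UC. Without that cluster it was 3.08 to 4.26 CPM in T and 2.89 to 5.19 CPM in UC, and none of the genes was called in T against UC or against VC-T. With cells matched on pseudotime none was called either, and the sign of Hist1h1a turned to a log2 difference of 0.61 against UC.

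**Figure D4:**
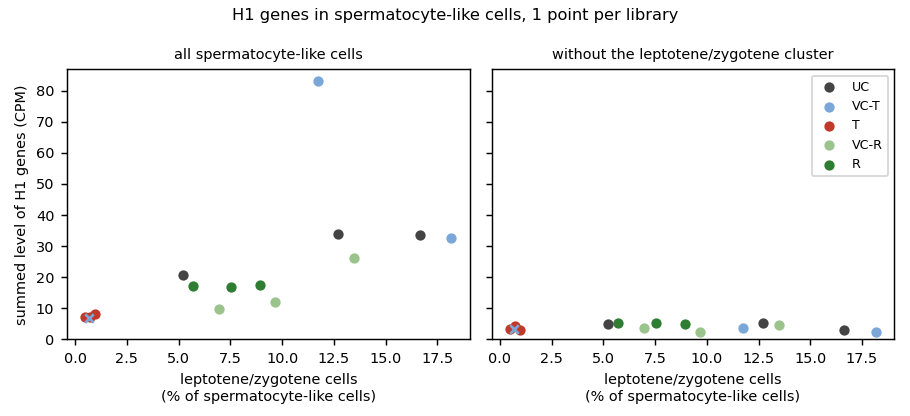
Summed H1 level (CPM) of spermatocyte-like cells against the percentage of these cells in the leptotene and zygotene cluster, 1 point per library, with that cluster kept and left out. T and VC-T 1 lie below 1% on the horizontal axis, and without the cluster all 15 libraries lie between 2.46 and 5.21 CPM.

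Inside the leptotene and zygotene cluster the few genes that could be tested against UC had the opposite sign. Only 11 to 23 such cells were found in each T library, so that 3 of the 64 genes passed the filter against UC. All 3 were called, where 10.2% of all tested genes were called, and all were higher in T. With so few T cells, a gene had to be high in several libraries to pass the filter. Hist1h2ap was low in UC and passed through its T levels, so its sign was fixed by the filter. The count of 3 is thus no result about the set, and the adjusted p of Hist1h2ap carries the same selection. This selection also bears on the sign and adjusted p of Hist1h1e, which was higher in every T library than in every UC library. Hist1h2ap was at 130.3, 82.2 and 89.5 CPM in UC and at 333, 989 and 579 CPM in T. The groups did not overlap, and the log2 difference was 2.62 ± 0.34 (adjusted p = 9.51e-08). Hist1h1e was higher by 1.49 (adjusted p = 0.00628) and Hist1h1a by 1.42 (adjusted p = 3.38e-04), the latter with overlapping groups. Against VC-T, 2 genes passed the filter and edgeR called none, where 5.74% of all tested genes were called. Both had an unadjusted p under 0.05, Hist1h1a with 1.01 (adjusted p = 0.0514) and Hist1h2ap with 0.705 (adjusted p = 0.21), and DESeq2 called none. The 26 S phase genes summed to 3424, 2142 and 1931 CPM in the T cells of this cluster and to 1552, 1417 and 1381 CPM in UC. The later spermatocyte gene Hist1h1t rested on few UMIs in the T cells. It was at 0, 0 and 129 CPM there and at 142, 133 and 86.3 CPM in UC. The part of such a difference in stage within the cluster was not tested. A fit of this cluster was added after the levels had been seen.

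In spermatid-like cells, 7 genes passed the filter for T against UC and 2 were called, where 16.6% of all tested genes were called. Hist1h4a was at 162, 182 and 169 CPM in UC and at 105.7, 79.9 and 99.2 CPM in T. The groups did not overlap, and the log2 difference was -1.09 ± 0.11 (adjusted p = 9.23e-07). Hist1h4h was higher in T, at 3.92, 2.85 and 4.07 CPM against 0.724, 0.824 and 2.18 CPM in UC, with a log2 difference of 1.13 ± 0.40 (adjusted p = 0.0314). Hist1h4h was low in UC and passed the filter through its T levels, so its sign was fixed by the filter. The count of 2 and this adjusted p carry that selection. Hist1h3a fell by 0.75 (adjusted p = 5.22e-04), under 2-fold. Hist1h2bp was at 410, 383 and 337 CPM in UC and at 367, 369 and 369 CPM in T. Its log2 difference after normalization was -0.27 ± 0.08 (adjusted p = 0.0121), and the groups overlapped in CPM. For the 2 leading spermatid genes the 95% interval was -1.30 to -0.88 for Hist1h4a and -0.43 to -0.11 for Hist1h2bp. The difference between these 2 genes was not tested. The adjusted p alone was passed by 6287 of all 12793 genes tested.

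Against VC-T, 9 genes passed and 1 was called, where 20.2% of all tested genes were called. Hist1h4h was higher in T (log2 difference 1.73, adjusted p = 0.00895), with 0.866 and 0.934 CPM in VC-T, and DESeq2 called none. Hist1h4h again passed the filter through its T levels, so its sign and this lone call carry that selection. Hist1h4a was at 144 and 164 CPM in VC-T, above every T library, with a log2 difference of -0.97 ± 0.15 (adjusted p = 4.60e-04) that stayed just under 2-fold. With VC-T 1 kept, at 101.5 CPM, the difference was -0.75 (adjusted p = 0.139).

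The spermatid-like cells of T held more of the earliest cells, with cluster 2 at 43.8 to 53.7% of the class against 18.6 to 25.0% in UC, and Hist1h4a was lower there, at a mean of 57.4 CPM over libraries against 187 CPM in cluster 4. Cluster 19, with the highest pooled Hist1h4a level at 195.9 CPM, held 0.158 to 1.19% of the class in T and 19.95 to 31.15% in UC. Hist1h4a was also compared within clusters 2, 4 and 16, the 3 clusters with the highest shares in T. This choice was made after the data were seen. In cluster 4 it was at 215, 199 and 228 CPM in UC and at 159.9, 121 and 153 CPM in T. The log2 difference was -0.65 ± 0.11 there (adjusted p = 8.55e-05), -0.58 in cluster 16 (adjusted p = 0.00485) and -0.34 in cluster 2 (adjusted p = 0.163). Against VC-T it was -0.58 in cluster 4 (adjusted p = 0.0219), -0.59 in cluster 16 (adjusted p = 0.0271) and 0.29 in cluster 2 (adjusted p = 0.414). With cells matched on pseudotime it was -0.47 ± 0.11 against UC (adjusted p = 0.00474) and -0.40 against VC-T (adjusted p = 0.106). None of these reached 2-fold.

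**Figure D5:**
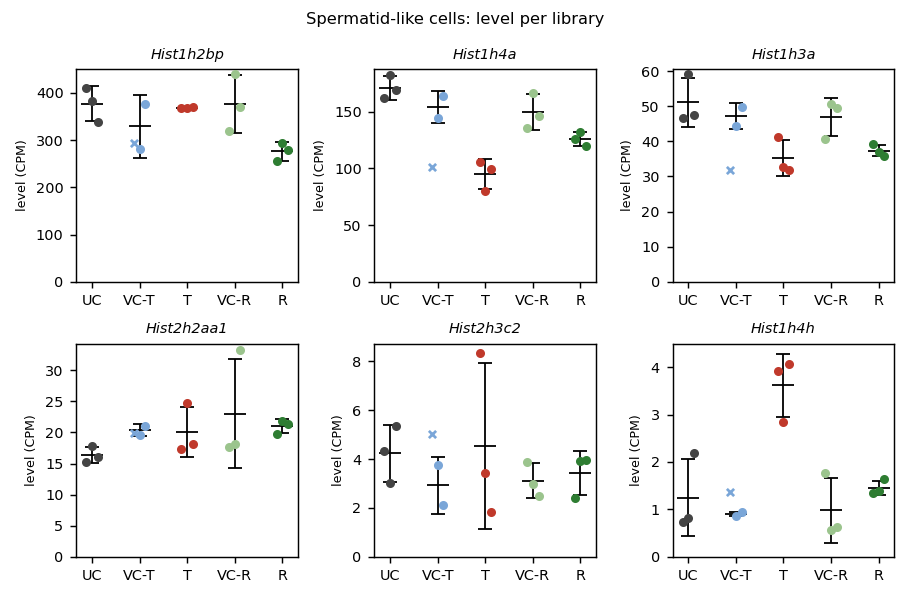
Levels (CPM) of 6 canonical histone genes in spermatid-like cells, 1 point per library by group, with the mean and SD of each group and a cross for the library labelled VC-T 1. Hist1h4a lies between 79.9 and 105.7 CPM in the T libraries and between 162 and 182 CPM in UC, whereas Hist1h2bp overlaps between T and UC and has its lowest mean in R.

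After withdrawal, no canonical histone gene was called in any of the 4 germ cell classes against either control. In spermatogonia-like cells, 16 genes were tested against UC and 15 against VC-R, where 0.232% and 0.0617% of all tested genes were called by edgeR. An unadjusted p under 0.05 was reached by 2 and 1 of them, and DESeq2 called none. Hist1h1a was at 466, 353 and 507 CPM in R and overlapped both UC and VC-R (180.5, 391 and 529.5 CPM). Hist1h2ap was at 592, 538 and 494 CPM in R, above all UC libraries (log2 difference 0.53, adjusted p = 0.117), and overlapped VC-R (348, 663 and 514 CPM). A sub-cluster led by transcripts of late spermatids (Tnp2, Prm1) held 48.15 to 73.6% of the spermatogonia-like cells in R and 1.961 to 20.3% in UC. In it 6 markers of differentiating spermatogonia were detected, with 2497 CPM of the histone genes and 2294 CPM of the S phase genes. Leaving it out may thus drop spermatogonia, and the part of free RNA in it was not tested. With the sub-clusters led by later transcripts left out, Hist1h2ap differed from UC by -0.07 (adjusted p = 0.913). Against VC-R it differed by -0.03 in the whole class (adjusted p = 0.99) and by -0.73 with these sub-clusters left out (adjusted p = 0.163).

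In spermatocyte-like cells, 19 and 21 genes were tested, where 0% and 0.0275% of all tested genes were called, with 5 and 1 of the histone genes at an unadjusted p under 0.05 and none called by DESeq2. Hist1h1a was at 8.08, 9.13 and 7.85 CPM in R, below every UC library, with a log2 difference of -1.06 ± 0.17 (adjusted p = 0.241).

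In spermatid-like cells of R, 6 genes were tested against each control, where 8.52% of all tested genes were called against UC and 8.67% against VC-R. None of the 6 was called by edgeR, with 4 and 3 at an unadjusted p under 0.05, and none by DESeq2. Of all tested genes, 7389 of 14383 against UC and 6884 of 14471 against VC-R had such an unadjusted p. The 3 leading genes passed the adjusted p with a difference under 2-fold. The adjusted p alone was passed by 6379 of all genes tested against UC and by 5579 against VC-R. These 3 of 6 were therefore not far from the share of all genes. Hist1h2bp was at 255.5, 293.9 and 278 CPM in R, below every UC library and every VC-R library (318, 440 and 370 CPM). The log2 difference was -0.65 ± 0.09 against UC (adjusted p = 2.61e-07) and -0.64 ± 0.11 against VC-R (adjusted p = 1.85e-04). Hist1h4a was at 126, 132 and 119.5 CPM, also below both controls, with -0.65 (adjusted p = 2.83e-07) and -0.45 (adjusted p = 0.00211). Hist1h3a gave -0.67 (adjusted p = 1.39e-05) and -0.54 (adjusted p = 0.00153).

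The spermatid-like cells of R consisted largely of clusters 7, 18 and 20, with medians of 1588, 1462 and 1756 UMIs per cell. They held 33.0 to 40.9%, 21.3 to 24.0% and 14.7 to 20.4% of the class in R and at most 8.79%, 6.88% and 4.51% in UC. In clusters 2, 4 and 16 alone, Hist1h2bp differed from UC by 0.00, -0.24 and -0.28 on the log2 scale (adjusted p = 0.999, 0.247 and 0.191). Hist1h4a differed there by -0.23, -0.12 and -0.19 (adjusted p = 0.773, 0.783 and 0.692). These clusters held only 4.67%, 4.92% and 5.81% of the spermatid-like cells of R. The others were not tested alone. In cluster 19 Hist1h2bp was at 259, 289 and 278 CPM in R and at 355, 338 and 346 CPM in UC, without overlap. Hist1h4a overlapped in cluster 19, at 178.7, 200 and 180 CPM in R and at 197.5, 223.8 and 233.7 CPM in UC. In cluster 18 Hist1h4a was at 109, 85.9 and 82.7 CPM in R and at 146, 197 and 114 CPM in UC, without overlap. UC had only 93 cells in cluster 18, so its values there rest on few UMIs. Hist1h2bp had the higher mean in R in cluster 18, at 158, 197.9 and 219.9 CPM against 109.7, 98.35 and 171.4 CPM in UC, with overlap. In cluster 7, which held the highest share of R, Hist1h2bp was at 179, 162 and 202 CPM in R and at 204, 249 and 103 CPM in UC, with overlap. With cells matched on pseudotime the differences of the whole class remained, at -0.57 for Hist1h2bp (adjusted p = 2.94e-06) and -0.81 for Hist1h4a (adjusted p = 2.29e-07).

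In spermatozoa-like cells the sign of Hist1h2bp was the reverse. Of 6 genes tested against each control none was called, where 0.898% of all tested genes were called against UC and 0% against VC-R. An unadjusted p under 0.05 was reached by 2 in each, and DESeq2 called none. Hist1h2bp was at 39.3, 38.8 and 51.1 CPM in R and at 29.4, 22.5 and 25.0 CPM in UC. The groups did not overlap, with a log2 difference of 0.72 ± 0.11 (adjusted p = 1.22e-05). VC-R reached from 19.95 to 40.9 CPM and overlapped R (log2 difference 0.53, adjusted p = 0.157). Hist2h2aa1 was higher than in UC as well (0.87 ± 0.19, adjusted p = 0.00299), at 6.91, 9.52 and 7.80 CPM against 4.11, 3.09 and 5.32 CPM, and VC-R overlapped R at 3.14 to 8.46 CPM. Hist1h4a was nearly the same in R and UC, at a mean of 23.92 and 21.98 CPM (95% interval of the log2 difference -0.14 to 0.29). The class was also made up differently. Cluster 21 had 1201 cells in R and 30 in UC, cluster 5 had 2051 and 686, and the largest, cluster 0, had 2146 and 1711. The pooled Hist1h2bp level was 132.2 CPM in cluster 21, 55.57 CPM in cluster 5 and 26.74 to 43.43 CPM in the others. The part of this make-up in the difference was not tested.

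In the leptotene and zygotene cluster of R, 9 genes were tested against UC and none was called, where 1.83% of all tested genes were called, with 5 at an unadjusted p under 0.05 and none called by DESeq2. Hist1h1a was at 234, 195 and 151 CPM in R and at 569, 329 and 310 CPM in UC, without overlap. Its log2 difference of -0.995 ± 0.18 (adjusted p = 5.16e-04) lay at the 2-fold limit. Against VC-R, 10 genes were tested and 1 was called, where 0.723% of all tested genes were called. Hist1h2ap was lower in R, at 56.9, 70.5 and 38.6 CPM against 66.2, 181 and 132 CPM in VC-R, with a log2 difference of -1.37 ± 0.29 (adjusted p = 0.0111). R 2 lay above VC-R 1, so the groups overlapped, and DESeq2 called none.

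The genes around histone supply were read from lists for comparison, first against UC, which differed from T in age and injection as well. In spermatogonia-like cells of T against UC, 12 of 15 genes of histone mRNA processing were tested, and edgeR called none, with 2 at an unadjusted p under 0.05 and 0 called by DESeq2. Their median log2 difference was -0.18. Of 26 S phase genes 25 were tested and 1 fell, the thymidylate synthase gene Tyms by 1.07 (adjusted p = 0.0461). Their median was -0.23. The DNA ligase gene Lig1 was at -0.71 (adjusted p = 0.0406), and Pcna, the sliding clamp of replication, at -0.51 (adjusted p = 0.132). Of 11 replacement histones, which are made outside S phase, 10 were tested and none was called, with 5 at an unadjusted p under 0.05 and 0 called by DESeq2. H1fx, a linker histone, lay just under 2-fold at -0.98 (adjusted p = 0.00532). Of 13 histone chaperones 11 were tested and none was called, with 1 at an unadjusted p under 0.05 and 0 called by DESeq2. Of the testis-specific neighbours left out of the set, Hist1h2ba fell by 1.25 (adjusted p = 0.0061) and Hist1h2aa was at -0.98 (adjusted p = 0.00244).

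Against VC-T, the vehicle controls of the same age, these lists gave other calls. None of the 26 S phase genes, 10 replacement histones or 12 chaperones tested was called, with 1, 3 and 2 at an unadjusted p under 0.05 and none called by DESeq2. Tyms was at -0.52 (adjusted p = 0.357), Lig1 at -0.55 (adjusted p = 0.0727) and H1fx at -0.01 (adjusted p = 0.99). Hist1h2ba was at 51.4 and 50.1 CPM in VC-T and at 40.0, 48.4 and 62.0 CPM in T, with a log2 difference of -0.11 (adjusted p = 0.87). The UC libraries stood above both, at 123, 124 and 99.9 CPM. Hist1h2aa was at -0.46 (adjusted p = 0.101). Of the 3 neighbours tested only Hist1h1t was called by edgeR, as higher in T, and none by DESeq2. Of 14 genes of histone mRNA processing tested, 1 was called, Mif4gd, whose product binds SLBP, which was higher in T by 1.42 (adjusted p = 0.00158) and at 0.88 against UC (adjusted p = 0.0704).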

How the data were processed

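Per the labels, the authors aligned 10x Genomics 3′ libraries to mm10 with Cell Ranger (version 3.0.0) and deposited filtered matrices of UMI counts per gene and cell. The matrices' own headers name a later release, and whether intronic reads were counted is not given in the sources used here. Barcodes below 500 detected genes, below 1000 UMIs or with 30% or more mitochondrial UMIs were dropped, as were the 5.4% with the highest doublet scores in each library. Cells were clustered with scanpy (version 1.11.5) into 31 clusters on 2000 variable genes, with no canonical histone gene among them, and named from marker lists. Lists of a sub-stage stood for their class, a choice made after the data were seen that decided the leptotene and zygotene cluster.

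Counts were summed per library and class (at least 10 cells) and expressed as CPM. Sums were compared with the quasi-likelihood test of edgeR (version 4.0.16, R 4.3.3) with Benjamini-Hochberg adjustment over all tested genes. DESeq2 (version 1.42.0), other filters and normalizations, matched cells and leaving out libraries were alternatives. The scripts were tested on simulated data. Named genes were those called (the 10 with the smallest adjusted p where more were), the 5 highest per class and up to 4 per comparison list. The members and lists were chosen with earlier results of these data known.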

Additional observations from a re-analysis of the deposited data

Results flagged for a closer look

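Hist1h1e gave opposite signs in T against UC in different spermatocytes, with every library of T on the one side in each. Its log2 difference was -1.65 in all spermatocyte-like cells and 1.49 within the leptotene and zygotene cluster. The difference between both was not tested, and the cells of the cluster are part of the class. With so few T cells in the cluster, a gene had to be high in several libraries to pass the filter there. The positive sign of Hist1h1e within the cluster carries that selection.

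Hist1h4h gave opposite signs in T against VC-T in different classes. Its log2 difference was -0.65 in spermatocyte-like cells, where it did not pass the adjusted threshold, and 1.73 in spermatid-like cells. The difference between both was not tested. In spermatid-like cells Hist1h4h was low in VC-T and passed the filter through its T levels, so its positive sign there was fixed by the filter.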

How the results depend on the processing

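The number of canonical histone genes called changed depended on the processing. The share of all tested genes called is given above for the main fits only. The counts under alternatives, here and below, are therefore not read as results about the set. In spermatogonia-like cells, T against UC gave 5 calls, and 3 with DESeq2 size factors, 0 with DESeq2 and 0 with cells matched on pseudotime. Without the sub-clusters led by later transcripts it gave 1. DESeq2 put Hist1h1a at -0.99, just under 2-fold. T against VC-T gave 5 in this class, and 1 with DESeq2, 8 without a filter, 1 matched, 3 without those sub-clusters and 0 with VC-T 1 kept. In spermatocyte-like cells, T against UC gave 3, and 0 matched or without leptotene and zygotene cells, and T against VC-T gave 7, and 24 without a filter and 0 matched, without these cells or with VC-T 1 kept. In spermatid-like cells, T against UC gave 2, and 4 without a filter and 0 matched or within clusters 2, 4 or 16, and T against VC-T gave 1, and 3 without a filter, 2 with all groups in 1 fit and 0 with DESeq2, matched, within a cluster or with VC-T 1 kept. R against UC in the leptotene and zygotene cluster gave 0, and 1 with DESeq2 size factors, without a filter or with all groups in 1 fit. R against VC-R gave 1 in spermatid-like cells without a filter and 0 in that cluster with DESeq2. The sub-cluster, cluster and leptotene choices were made after seeing the data. Signs reversed in spermatocyte-like cells with matching for Hist1h1e (0.59) and Hist1h1a (0.61) against UC and for Hist1h2ap (0.0896) and Hist1h1a (0.13) against VC-T, and without leptotene and zygotene cells for Hist1h4d (0.26) and Hist1h1a (1.63) against VC-T. The causes were not tested.

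Leaving out 1 library at a time gave 1 to 5 calls for T against UC in spermatogonia-like cells (1 without UC 1 or UC 2), 0 to 4 in spermatocyte-like cells (0 without any T library, UC 2 or UC 3), 1 to 2 in spermatid-like cells and 2 to 4 in the leptotene and zygotene cluster. For T against VC-T it gave 2 to 7, 4 to 15 (15 without VC-T 3), 1 to 3 and 0 to 1, where a lone library is assumed to vary like the others. For R against UC it gave 0, 0 to 1, 0 to 1 and 0 to 2, with 0 to 1 in spermatozoa-like cells, and for R against VC-R 0, 0 to 1, 0 to 2 and 0 to 1, with 0 in spermatozoa-like cells. The summed level of the members stayed within 1 SD under the 95 alternatives counted for it. The summed H1 level of UC spermatocyte-like cells did fall when the leptotene and zygotene cluster was left out, as given above.

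Same-numbered libraries were not paired: in 0 of 11 sets with 3 pairs was every correlation over 0.1 (-0.63 to 0.65). With the replicate number as a block, T against UC gave 3 calls in spermatogonia-like cells, T against VC-T 2 in spermatid-like cells and R against UC 1 in the leptotene and zygotene cluster.

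Depth limited the tests to 2 to 22 of the 64 genes per comparison and class, so for the others a change was not detectable at this depth. The UMIs of the 8 genes under 20 UMIs came to 66 in all cells together.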
